A study of Mus musculus with 4 samples.

Results

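DNA replication genes were followed through 4 RNA sequencing libraries of tongue-derived epithelial cells of C57BL/6 mice. The members are 41 genes of the replication machinery, taken by exact symbol from the 54446 genes with a symbol in the deposited table, and all 41 were found. Controls 1 and 2 carry the label wild type. Libraries 3 and 4 are labelled as lacking Otub2 systemically. Otub2 is an enzyme of the OTU class that removes ubiquitin from proteins. The cells of all 4 libraries were grown in RPMI-1640 with 10% FBS. The titles give libraries 3 and 4 as KO, whereas their columns in the table are headed OE with the same numbers, a heading that the labels do not explain. Titles and genotype labels were followed, and the libraries are called library 3 and library 4 of the labelled knockout. Neither the source of each library (animal or culture) nor the deleted part of Otub2 is given, so the p-values cover only the variation among these libraries, which may be technical. The stated purpose was to learn which transcripts differ in mice without Otub2.

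Before S phase, the origin recognition complex, Cdc6 and Cdt1 load the ring-shaped MCM helicase onto DNA. Cdc45 and the GINS complex turn the loaded ring into the moving helicase, polymerase alpha with its primase starts each new strand, and polymerases epsilon and delta extend it behind the sliding clamp PCNA. Transcription of many of these genes rises as E2F factors are released at the passage from G1 to S phase, and stratified epithelia such as that of the tongue renew from dividing basal cells. In bulk RNA, fewer cells of a type and less RNA per cell cannot be told apart.

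The promoters of the members are shown first because E2F sites are the best known shared feature of these genes and were not used to choose them. RefSeq promoter windows (GRCm38.p6, 250 bases before to 50 bases after the start) were given for 33 of the 41 members. The E2F spellings TTTCGCGC, TTTGGCGC, TTTCCCGC and TTTGCCGC were searched on both strands. At least 1 of them was found for 14 of the 33 members (42.4%). The share was 3.88% of 14175 tested genes with a window and 4.84% of 9013 genes with a mean of at least 5 CPM. Of all 27025 genes with a window it was 2.6%. Among 49 replication genes outside the members, from the lists given further below, 16 had a match (32.7%), so matches were not particular to the members. The spellings can overlap one another, and CCAAT at their ends. The pentamer CCAAT, a common promoter element searched in the same way, was found for 19 of the 33 (57.6%) and for 41.1% of all genes. Among the same 49 replication genes outside the members it was found for 25 (51%). A match is a description of these letters, not a site in use. The sites below are the match nearest to the start for 13 of the 14 members; the match of Pold1 lies too close to the end of its window. Each is read along the strand on which the motif begins with TTT, with the motif in capitals and 10 bases on either side, and the coordinates are those of the motif. They run from position -185 (Uhrf1) to 33 (Cdt1) relative to the start, counted at the first base of the motif.
Cdc6 (chr11:98908013-98908020, minus strand): ccccaggcgaTTTCCCGCtctccaccgg
Cdt1 (chr8:122568047-122568054, plus strand): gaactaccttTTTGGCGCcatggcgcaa
Gins3 (chr8:95633518-95633525, minus strand): tcaaactcgcTTTCCCGCgccgcactcg
Lig1 (chr7:13278852-13278859, minus strand): gccacacagaTTTCGCGCgcactttggc
Mcm3 (chr1:20820286-20820293, plus strand): cttcccaagtTTTCCCGCcacggaagtt
Mcm5 (chr8:75109360-75109367, minus strand): ggctggacgtTTTGGCGCgaaagttctt
Mcm6 (chr1:128359745-128359752, minus strand): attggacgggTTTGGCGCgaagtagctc
Mcm7 (chr5:138171860-138171867, minus strand): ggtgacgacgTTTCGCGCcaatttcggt
Orc1 (chr4:108579427-108579434, minus strand): ggagaaaactTTTCGCGCcactaaccga
Pola1 (chrX:93632286-93632293, plus strand): cgggagtgcaTTTGGCGCcctgtgatga
Pole2 (chr12:69228173-69228180, plus strand): atgttcgcgaTTTGGCGCcaccgccgac
Rfc3 (chr5:151651201-151651208, plus strand): acagtagagtTTTCCCGCgagcgcgaaa
Uhrf1 (chr17:56304128-56304135, plus strand): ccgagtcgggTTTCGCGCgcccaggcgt

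Mcm6 and Chaf1b were picked as the promoter with the most matches and as the member that differed most from the controls in library 4. The 250 bases before the Mcm6 start (chr1:128359706-128359955, minus strand) hold 3 matches, and the first 2 overlap on opposite strands. The stretch of Chaf1b (chr16:93883651-93883900, plus strand) holds 0. Capitals mark E2F spellings.
Mcm6: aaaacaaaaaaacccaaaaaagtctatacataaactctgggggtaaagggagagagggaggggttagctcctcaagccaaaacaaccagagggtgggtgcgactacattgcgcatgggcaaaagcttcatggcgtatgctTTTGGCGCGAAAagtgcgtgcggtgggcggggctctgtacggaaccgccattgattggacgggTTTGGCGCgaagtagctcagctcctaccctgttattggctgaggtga
Chaf1b: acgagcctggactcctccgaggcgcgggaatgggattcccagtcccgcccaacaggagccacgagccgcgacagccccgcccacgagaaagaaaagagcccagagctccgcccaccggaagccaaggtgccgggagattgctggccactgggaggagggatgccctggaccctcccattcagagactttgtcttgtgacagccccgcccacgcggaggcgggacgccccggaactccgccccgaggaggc
The 14 members with a match had a median log2 difference from the controls of 1.55 in library 4 (1.09 to 2.23), and the 19 with a window and no match 1.34 (1.02 to 2.35). In library 3 the medians were -0.23 and -0.26. The ranges of the members with and without a match overlapped in both libraries.

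Reads assigned to genes ranged from 11548186 in Control 2 to 22719550 in library 3. Tongue keratins and Trp63 were present in all 4 libraries. The 6 epithelial markers together stood at 53770 and 48210 CPM in the controls, against 26710 in library 3 and 37280 in library 4. In library 4 Krt14, Krt13, Krt4 and Krt6a lay below both controls, whereas Krt5 and Trp63 lay above both. Trp63 was at 519.9 CPM there, against 308.8 and 342.7 CPM in the controls. Library 3 stood apart. In it, 11 salivary gland markers took 30.1% of gene counts, against at most 0.00316% in the other libraries. Mucl2 alone held 377100 of their summed 471600 CPM there. Car6, Pip, Prol1 and Lpo were also far above the controls, from 575 CPM (Lpo) to 52910 CPM (Car6). Bpifa2 and Amy1 stood at only 12.36 and 2.347 CPM. Smr3a, Dcpp1, Dcpp2 and Dcpp3 were nevertheless at 0 in library 3. There, 10 heart muscle markers took 1.27%, against at most 0.00634% in the other libraries. Of these, Myl7 lay between the controls, at 2.209 CPM in library 3 against 2.075 and 2.606 CPM. The 6 fibroblast markers stood at 129 and 161 CPM in the controls, against 603 in library 3 and 356 in library 4, although Dcn and Pdgfra lay below both controls in library 4, at 10.9 and 6.98 CPM. Of 6 leukocyte markers, which summed to 800 and 750 CPM in the controls, against 322 in library 3 and 328 in library 4, S100a8 alone held 751, 698, 201 and 288 CPM. In library 3 Ptprc, Cd3e and Cd79a were also below both controls, whereas Lyz2 was at 86.8 CPM against 24.7 and 30.5 in the controls and Csf1r at 22.5 CPM against 11.6 and 7.75. None of these 12 markers was at 0. Otub2 transcripts stood at 27.2 CPM (Control 1), 26.6 CPM (Control 2), 18.8 CPM (library 3) and 23.7 CPM (library 4) (log2 fold change -0.34, SE 0.302, edgeR adjusted p = 0.485), and a gene-level count does not check a partial deletion. All CPM values here are scaled by TMM, a normalization that sets the bulk of genes level between libraries.

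The 2 libraries of the labelled knockout held very different amounts of replication transcripts. In library 4 all 41 members lay above both controls, whereas in library 3 26 lay below both, 9 between them and 6 above. The positions in library 3 are with TMM, include near ties and were not counted with other scalings. Mcm4, at 30.37 CPM in library 3 against 30.44 in Control 1, was counted as below. Rpa2, at 20.3 CPM against 20.2 in Control 2, was counted as between. Of all 21916 genes tested, 41.8% lay above and 47.1% below both controls in library 4, and 45.6% below and 42.1% above both in library 3. Over the 41 members the log2 difference from the controls had a median of 1.51 in library 4 (0.83 to 2.35) and -0.22 in library 3 (-1.52 to 0.83). Genes with a mean of at least 5 CPM had medians of 0.35 and 0.27, so the members stood 1.16 above such genes in library 4 and below them in library 3 (-0.49). A scaling shifts all genes of a library alike, so these last 2 values cannot depend on it and their sameness is no sign of stability. The median in library 3 itself ran from -1.12 with library size only to 0.02 with features that name no gene kept, and so changed sign. Upper-quartile scaling moved the median of all tested genes in library 3 to -0.53 from -0.04. The controls differed from each other by a median of 0.22 over the members.

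**Figure D1:**
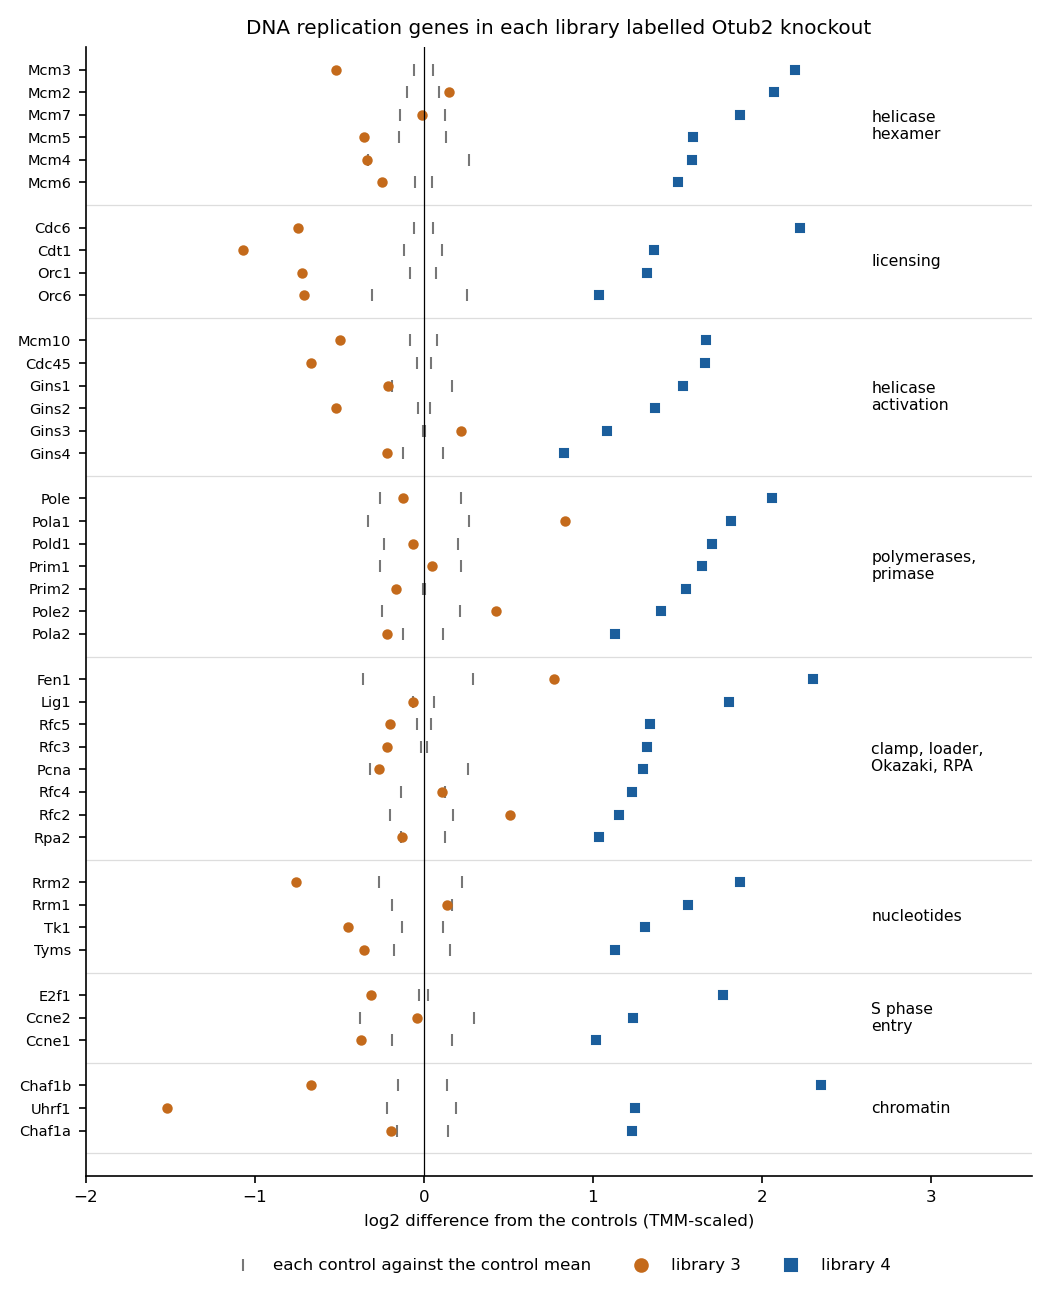
Log2 difference of each member from the controls (horizontal axis, TMM-scaled), grouped by role. Ticks are each control against the control mean, circles library 3 and squares library 4; every square lies to the right of both ticks of its gene, at 0.83 to 2.35, while the circles run from -1.52 to 0.83.

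To test each library alone, a fit with separate levels for library 3, library 4 and the controls was used. Its only replicate spread is that between the 2 controls, each lone library is assumed to vary like them, and a difference concerns the libraries and not the genotype. By edgeR's quasi-likelihood test with Benjamini-Hochberg adjustment over all 21916 genes, 41 of 41 members were higher in library 4 than in the controls (largest adjusted p = 0.0121), where 19.3% of all genes were called higher. In library 3, 3 members were lower, where 17.2% of all genes were, and 1 was higher, where 23% were, both smaller shares than among all genes. The count of lower members there rests on the scaling, from 3 with TMM to 21 with upper-quartile and 36 with library size only, as did the count of all genes called in either direction, at 8799, 11172 and 14628 of 21916. Statements below on which members passed in library 3, or lay above, between or below the controls there, are with TMM and may change with the scaling. Between the libraries, 39 of 41 members were higher in library 4 than in library 3, where 9.92% of all genes were called higher, and Gins3 and Rfc2 were the other 2. With DESeq2 36 members were higher in library 4 than in the controls and 33 higher than in library 3; over all genes and both directions it called 3164 and 2890.

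**Figure D2:**
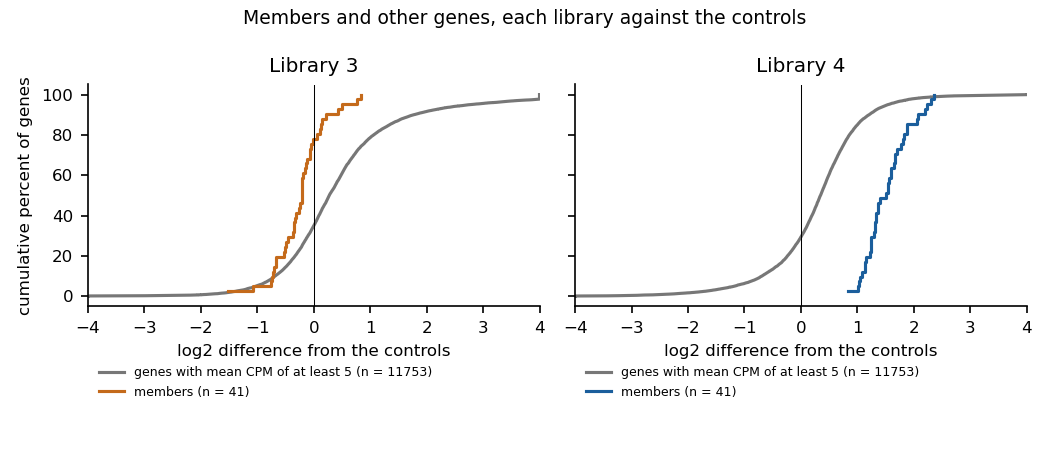
Cumulative percent of genes (vertical axis) by log2 difference from the controls (horizontal axis, values beyond 4 drawn at 4) in library 3 (left) and library 4 (right). The coloured steps are the 41 members and the grey line 11753 genes with a mean of at least 5 CPM; the member medians are -0.22 and 1.51, the grey medians 0.27 and 0.35.

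With both libraries taken as replicates of 1 group, no member passed. The fit of 2 against 2 libraries called 0 members (0% of all genes were called in either direction, smallest adjusted p over all genes 0.162, smallest over the members 0.179 by edgeR). At an unadjusted p under 0.05 it held 1 member higher and 0 lower, where 9.42% and 15.2% of all genes were; DESeq2 called 0 of the 41 members, against 3.56% of genes higher and 1.18% lower. All 41 log2 fold changes were above 0, with a median of 0.91 against 0.41 for genes with a mean of at least 5 CPM, and their standard errors ran from 0.348 to 0.958. Both libraries lay above both controls in 6 members, Fen1, Gins3, Mcm2, Pola1, Pole2 and Rfc2, where 26.9% of all genes did. Both lay below in 0, where 33.1% did. Without library 4 the median of the members was -0.22. Without library 3 it was 1.53.

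The MCM helicase is a ring of the 6 subunits Mcm2 to Mcm7. All 6 were higher in library 4, with log2 differences of 1.51 to 2.20, and none passed in library 3. Where 4 CPM values follow each other from here on, they are Control 1, Control 2, library 3 and library 4. Mcm3 was at 27.8 and 30.1 CPM in the controls, against 20.2 in library 3 and 133 in library 4. Library 3 was thus below and library 4 above both controls, and the 2 libraries differed by 2.72 on the log2 scale (SE 0.322, edgeR adjusted p = 1.3e-15); the fold change of the pair against the controls was 1.40 (SE 0.842, adjusted p = 0.326). Mcm2, at 20.8 and 23.7 CPM, 24.6 CPM and 93.4 CPM, was the subunit with the smallest p in the fit of 2 against 2 (1.41, SE 0.642, adjusted p = 0.235). It was the one subunit with both libraries above both controls. Library 4 was far above the other libraries in the remaining subunits too. Mcm4 stood at 30.4 and 46.2 CPM in the controls, against 30.4 in library 3 and 115 in library 4, with library 3 level with the lower control. Mcm5 was at 38.2 and 46.3 CPM, 33.1 CPM and 127 CPM, and Mcm6 at 26.5 and 28.4 CPM, 23.1 CPM and 78 CPM. Mcm7 stood at 32.5 and 39.2 CPM, 35.6 CPM and 131 CPM, with library 3 between the controls.

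Licensing genes had the widest median gap between the 2 libraries of all role groups except the chromatin genes. Orc1 and Orc6 are subunits of the origin recognition complex, and Cdc6 and Cdt1 bring the helicase to it. Library 3 was below and library 4 above both controls in all 4, with a median difference between the libraries of 2.24. Cdc6 was at 5.67 and 6.15 CPM in the controls, against 3.52 in library 3 and 27.7 in library 4, a difference of 2.98 between the libraries (SE 0.419, edgeR adjusted p = 3.51e-11) and of 1.40 between the groups (SE 0.95, adjusted p = 0.374). Cdt1 was at 16.3 and 19 CPM, 8.42 CPM and 45.4 CPM. It was 1 of the 3 members lower in library 3 (-1.07, SE 0.319, edgeR adjusted p = 0.00358), and is given for that call, after its values were seen. Orc1 stood at 4.91 and 4.42 CPM, 2.83 CPM and 11.7 CPM, and Orc6 at 15.1 and 22.4 CPM, 11.5 CPM and 38.4 CPM.

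Helicase activation rests on Cdc45, the 4 GINS subunits and Mcm10, which binds the activated helicase. All 6 were higher in library 4, and 5 lay below both controls in library 3. Cdc45 was at 10.5 and 9.92 CPM in the controls, against 6.42 in library 3 and 32.4 in library 4, and the libraries differed by 2.34 (SE 0.379, edgeR adjusted p = 1.44e-08; 0.93 between the groups, SE 0.772, adjusted p = 0.457). Mcm10 followed the same order at 11.9 and 10.6 CPM, 8.01 CPM and 36 CPM. GINS was less even. Gins1 stood at 4.98 and 6.37 CPM, 4.9 CPM and 16.5 CPM, and Gins2 at 6.99 and 6.66 CPM, 4.76 CPM and 17.6 CPM. Gins4 differed least of all members in library 4 (0.83), at 16.7 and 14.1 CPM, 13.3 CPM and 27.4 CPM. Gins3, at 5.6 and 5.65 CPM, 6.56 CPM and 12 CPM, was above both controls in both libraries (0.72, SE 0.482, edgeR adjusted p = 0.37), and the difference between the libraries did not pass (0.87, SE 0.411, adjusted p = 0.0996). Of Gins2's exonic bases 67.3% are shared with Gse1 on the other strand, so its count is uncertain.

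Polymerase genes were the group whose median in library 3 lay closest to the controls (-0.07). Pola1 is the catalytic subunit of polymerase alpha, Pola2 its second subunit, Prim1 and Prim2 the primase, Pole and Pole2 subunits of polymerase epsilon and Pold1 the catalytic subunit of polymerase delta. All 7 were higher in library 4 (1.13 to 2.06), and 2 were above both controls in library 3, 2 below and 3 between. Pola1 was at 9.62 and 14.6 CPM in the controls, against 21.5 in library 3 and 42.6 in library 4. It had the smallest p of the 41 members (log2 fold change 1.41, SE 0.468, 95% interval 0.22 to 2.60, edgeR adjusted p = 0.179) and was the only member called higher in library 3 (0.83, SE 0.291, adjusted p = 0.0143). Pole2 was likewise above both controls in both libraries, at 5.05 and 6.95 CPM, 8.08 CPM and 15.9 CPM. Pole, at 13.6 and 18.9 CPM, 14.9 CPM and 67.8 CPM, showed the largest gap between the libraries in this group (2.18, SE 0.339, edgeR adjusted p = 2.45e-09; 1.35 between the groups, SE 0.732, adjusted p = 0.29). Pold1 stood at 16.5 and 22.3 CPM, 18.5 CPM and 63.2 CPM, and Prim1 at 13.1 and 18.2 CPM, 16.2 CPM and 49.1 CPM, with library 3 between the controls in both. Prim2 was at 10.9 and 10.9 CPM, 9.73 CPM and 31.9 CPM, and Pola2 at 20.1 and 17.1 CPM, 16 CPM and 40.8 CPM.

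**Figure D3:**
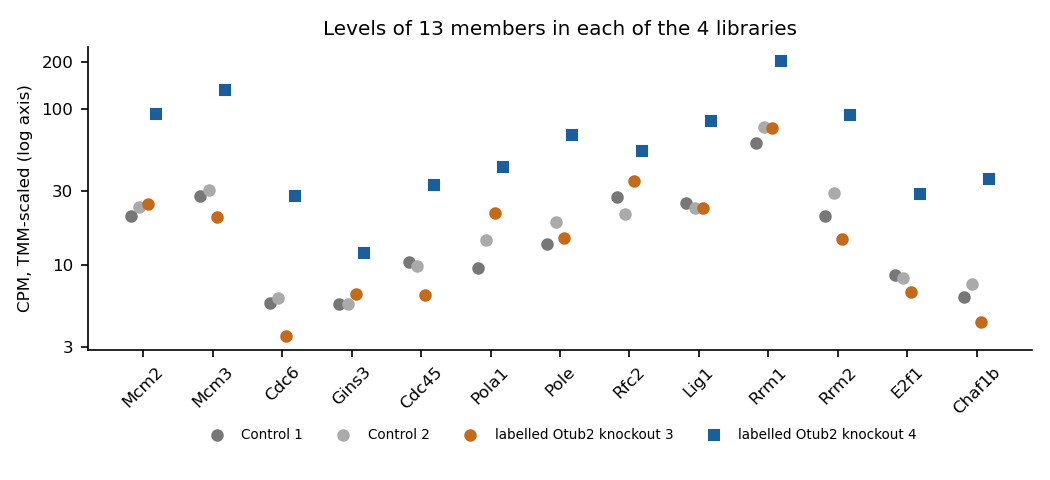
TMM-scaled CPM (vertical log axis) of 13 members in each of the 4 libraries: the member with the smallest p and the one with the largest gap between libraries 3 and 4 in each role group. The square, library 4, is the highest point of every gene, from 12 CPM for Gins3 to 204 CPM for Rrm1.

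The clamp Pcna, the clamp loader subunits Rfc2 to Rfc5, the flap nuclease Fen1, the ligase Lig1 and the single-strand binding subunit Rpa2 act at the fork behind the helicase. All 8 were higher in library 4 and none passed in library 3. Pcna was at 56.4 and 84.1 CPM in the controls, against 58.5 in library 3 and 173 in library 4, so library 3 lay between the controls. Lig1, which seals Okazaki fragments, had 25.1 and 23.1 CPM, 23.1 CPM and 84.3 CPM, and the largest gap between the libraries in this group (1.87, SE 0.322, edgeR adjusted p = 1e-07; 1.16 between the groups, SE 0.624, adjusted p = 0.288). Rfc2 was at 27.4 and 21.1 CPM, 34.5 CPM and 54.1 CPM. Both libraries were above both controls (0.87, SE 0.348, 95% interval -0.02 to 1.75, edgeR adjusted p = 0.206), and the gap between them did not pass (0.65, SE 0.316, adjusted p = 0.111). The other loader subunits and Rpa2 stood near the controls in library 3. Rfc3 was at 11.2 and 10.9 CPM, 9.53 CPM and 27.7 CPM, Rfc4 at 8.16 and 9.77 CPM, 9.66 CPM and 21 CPM, and Rfc5 at 16.3 and 17.2 CPM, 14.6 CPM and 42.3 CPM. Rpa2 was at 24.2 and 20.2 CPM, 20.3 CPM and 45.7 CPM. Fen1 had only 10 and 15 counts in the controls, 22 in library 3 and 92 in library 4. In GENCODE M21, 84.2% of the exonic bases of Fen1 (chromosome 19, 10199132 to 10204169, minus strand, GRCm38) are shared with Gm10143 and Tmem258 on the other strand, and how the authors counted reads in shared bases is not given in the sources used here. Its level is therefore uncertain.

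The enzymes of nucleotide supply come next. Rrm1 and Rrm2 are the large and small subunits of ribonucleotide reductase, which makes deoxynucleotides, and Tyms and Tk1 supply thymidylate. All 4 were higher in library 4 (1.13 to 1.87). Rrm2 was at 20.7 and 29.1 CPM in the controls, against 14.7 in library 3 and 91.2 in library 4. It was lower in library 3 (-0.76, SE 0.289, edgeR adjusted p = 0.0259) and the libraries differed by 2.63 (SE 0.333, adjusted p = 9.48e-14), while the difference between the groups was 1.09 (SE 0.832, adjusted p = 0.422). Rrm1, at 60.5 and 77.1 CPM, 75.6 CPM and 204 CPM, had library 3 between the controls (1.02 between the groups, SE 0.512, edgeR adjusted p = 0.265). Tk1 stood at 50 and 42.3 CPM, 33.8 CPM and 115 CPM, and Tyms at 15.1 and 19 CPM, 13.4 CPM and 37.5 CPM, with library 3 below both controls in each.

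Cyclins E1 and E2, encoded by Ccne1 and Ccne2, drive entry into S phase, and E2f1 is a transcription factor of replication genes. E2f1 was at 8.58 and 8.25 CPM in the controls, against 6.77 in library 3 and 28.7 in library 4, a difference of 2.08 between the libraries (SE 0.384, edgeR adjusted p = 7.66e-07) and of 1.08 between the groups (SE 0.719, adjusted p = 0.368). The cyclins differed less in library 4 (1.02 and 1.24, against 1.77 for E2f1). Ccne1 was at 21.5 and 16.9 CPM, 14.8 CPM and 38.9 CPM, and Ccne2 at 3.67 and 5.86 CPM, 4.63 CPM and 11.2 CPM. All 3 were higher in library 4 and none passed in library 3.

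Chromatin is rebuilt behind the fork by the histone chaperone CAF-1, whose large and middle subunits are Chaf1a and Chaf1b, and Uhrf1 brings the maintenance DNA methyltransferase to new DNA. Chaf1b (chromosome 16, 93883901 to 93906115, plus strand, GRCm38) was at 6.23 and 7.6 CPM in the controls, against 4.35 in library 3 and 35.4 in library 4. It was the member with the largest difference in library 4 (2.35, SE 0.305, edgeR adjusted p = 1.12e-12) and with the largest gap between the libraries (3.02, SE 0.40, adjusted p = 1.45e-12). Between the groups it was 1.52 (SE 0.958, edgeR adjusted p = 0.344). Uhrf1 was at 40.5 and 53.7 CPM, 16.4 CPM and 112 CPM, and was the member farthest below the controls in library 3 (-1.52, SE 0.286). It is named for that call, after its values were seen. Chaf1a was at 20.3 and 25 CPM, 19.7 CPM and 53.2 CPM. Of its exonic bases 52.5% are shared with Ubxn6 on the other strand, so its count is uncertain.

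The members can also be set against all gene counts, or against each other, inside a library. A share of gene counts amounts to scaling by library size only, whereas shares within the member counts need no scaling between libraries. Together they took 0.0926% of gene counts in Control 1 (95% Wilson interval 0.0909 to 0.0943), 0.108% in Control 2 (0.106 to 0.11), 0.0458% in library 3 (0.0449 to 0.0467) and 0.269% in library 4 (0.267 to 0.271). These intervals cover counting error only, and the gland and heart transcripts enter the total of library 3. Within the counts of the 41 members, the helicase subunits took 22.6%, 23.7% and 23.3% in the controls and library 3, and 27.9% in library 4 (27.5 to 28.3). Licensing genes took 5.39% and 5.77% in the controls, 3.65% in library 3 (3.31 to 4.03) and 5.06% in library 4. The chromatin genes took 8.59% and 9.58%, 5.64% (5.22 to 6.1) and 8.24%, and Uhrf1 alone 5.2% and 5.97%, 2.29% (2.02 to 2.59) and 4.6%. The share of the polymerase genes was higher in library 3 than in the other libraries, at 14.6% (14 to 15.3) against 11.4% and 12.1% in the controls and 12.8% in library 4. The clamp group took 21.7% and 20.8% in the controls, 23.9% in library 3 (23.1 to 24.7) and 18.6% in library 4 (18.3 to 18.9). Each library thus lay outside the range of the controls in several groups, and no test was run on these shares.

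**Figure D4:**
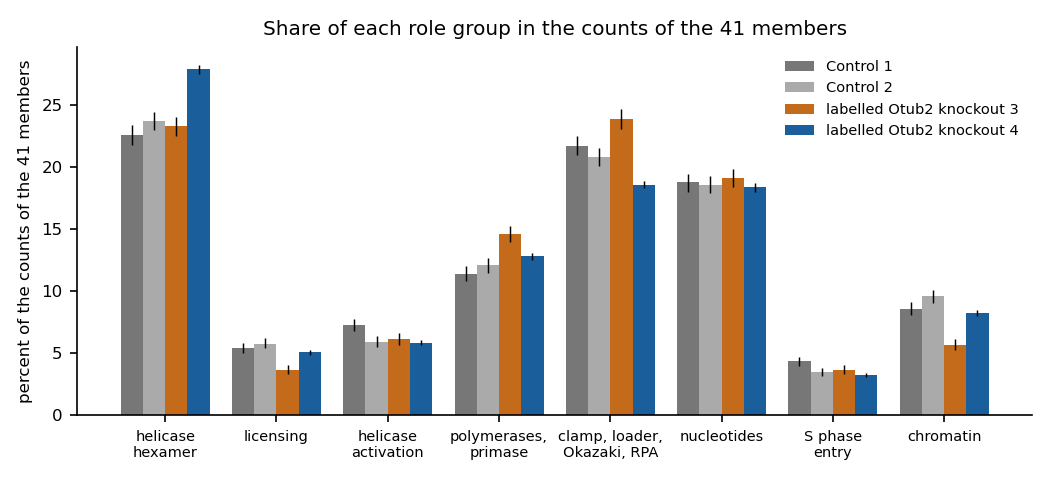
Percent of the counts of the 41 members taken by each role group (vertical axis, from 0) in each library, with 95% Wilson intervals as error bars. The helicase bar of library 4 stands at 27.9% against 22.6% to 23.7% elsewhere, and the licensing and chromatin bars of library 3 are the lowest of their groups.

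Levels of different genes were compared by the deposited FPKM, which divides by gene length. The order of the members was much the same in every library, with Spearman's rho over the 41 genes from 0.864 between libraries 3 and 4 to 0.96 between the controls; genes are not independent replicates, and all libraries share the gene lengths. Pcna had the highest FPKM of the members in every library and Fen1 the lowest. The FPKM of Pola2 rests on a length of 2872 bases, against 8294 exonic bases in GENCODE M21, while the other 40 lengths equalled that annotation within 1 base. By FPKM, Mcm3 ranked 10 in both controls and 2 in library 4 (38.8 FPKM). Uhrf1 ranked 5 and 3 in the controls (11 and 14.7 FPKM) and 19 in library 3 (2.43 FPKM). Within the helicase, where the ring holds 1 of each subunit, the FPKM of Mcm2 was 0.432 and 0.402 of the mean of the 6 in the controls, 0.55 in library 3 and 0.506 in library 4, while Mcm5 was at 1.38 and 1.37, 1.28 and 1.2. Gins4 had the highest FPKM of the GINS subunits in every library, at 2.04 to 2.55 of their mean, and Gins2 the lowest, at 0.279 to 0.431. Such ratios between genes rest on the lengths used, which take in all annotated exonic bases. These are 6956 bases for Mcm2, 4097 for Gins2 and 1349 for Gins4. By counts, Gins2 was above Gins1 and Gins3 in the controls and library 4, though below both in library 3.

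The rest of the replication machinery was read from 7 lists of 58 genes, all tested, that hold no member. In the fit of 2 against 2, 0 of the 58 passed the edgeR test in either direction (smallest adjusted p = 0.166), and at an unadjusted p under 0.05 6 were higher and 0 lower, where 9.42% and 15.2% of all genes were. In library 4, 45 of the 58 were higher than the controls and 1 was lower, where 19.3% of all genes were higher and 28.6% lower. In library 3, 3 were higher and 5 lower, where 23% and 17.2% of all genes were. The median log2 difference of the 58 was 0.98 in library 4 and -0.16 in library 3. Origin firing genes were all higher in library 4 (9 of 9, median 1.16), as were both MCM relatives outside the ring, Mcm8 and Mcm9. Ccna2, cyclin A2, stood at 20.7 and 30.1 CPM in the controls, against 22.4 in library 3 and 84.5 in library 4, and Topbp1, which helps load Cdc45, at 51.5 and 61.5 CPM, 58.9 CPM and 139 CPM. Of the 6 other licensing genes 4 were higher in library 4 and 1, Orc3, was higher in library 3. Orc3, a core subunit of the origin recognition complex, was at 13.8 and 17.4 CPM, 33.3 CPM and 34.6 CPM, so both libraries were above both controls (1.12 between the groups, edgeR adjusted p = 0.166). The fork list had 14 of 20 higher in library 4 and 0 called in library 3. Rpa1, the large single-strand binding subunit, was at 42.3 and 39.1 CPM, 54.9 CPM and 120 CPM, and the large clamp loader subunit Rfc1 at 41.7 and 44.3 CPM, 59.2 CPM and 100 CPM.

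Of the nucleotide list 7 of 9 were higher in library 4. Umps, which completes the synthesis of UMP, was at 12.4 and 14.6 CPM in the controls, against 25.4 in library 3 and 50.1 in library 4, and was higher in both libraries. The chromatin list had 5 of 6 higher in library 4. Dnmt1, the maintenance DNA methyltransferase that works with Uhrf1, was at 40 and 59.2 CPM, 58.6 CPM and 185 CPM, and the histone chaperone Asf1b at 6.36 and 6.66 CPM, 4.76 CPM and 18.9 CPM. Of the E2F and pocket protein list 4 of 6 were higher in library 4, among them Rbl1, the pocket protein p107, at 24.1 and 37.6 CPM, 27.5 CPM and 71.8 CPM. Gmnn, which inhibits Cdt1, was at 21.5 and 21.5 CPM, 22.2 CPM and 50.5 CPM, so library 3 lay close to the controls while Cdt1 itself was lower there.

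Some partners of the members did not pass in library 4, and the following were chosen after their values were seen. Orc5 was at 14.9 and 15.4 CPM in the controls, against 15.8 in library 3 and 17.8 in library 4. Pole4, a small subunit of polymerase epsilon, was at 25.1 and 25 CPM, 30.1 CPM and 25.2 CPM, and the histone chaperone Asf1a at 9.68 and 10.1 CPM, 9.53 CPM and 9.04 CPM. Their log2 differences from the controls in library 4 were 0.23, 0.01 and -0.13, below the lowest member (0.83). Further genes chosen in the same way differed in library 3 or were lower in library 4. E2f2, another E2F factor, was at 20.8 and 19 CPM, 5.59 CPM and 24.1 CPM, and E2f8, a repressor of the family, at 15.5 and 18.6 CPM, 7.39 CPM and 36.5 CPM, and both were lower in library 3. Rrm2b, a small reductase subunit that p53 induces, was at 4.01 and 7.75 CPM, 23.1 CPM and 11.6 CPM and was higher in both libraries, more so in library 3, and library 4 lay below library 3 (-0.99, SE 0.373, edgeR adjusted p = 0.0307). Samhd1, which breaks down deoxynucleotides, was at 108 and 80.8 CPM, 75.5 CPM and 56.7 CPM, and was the 1 gene of the 58 lower in library 4 (-0.73).

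**Figure D5:**
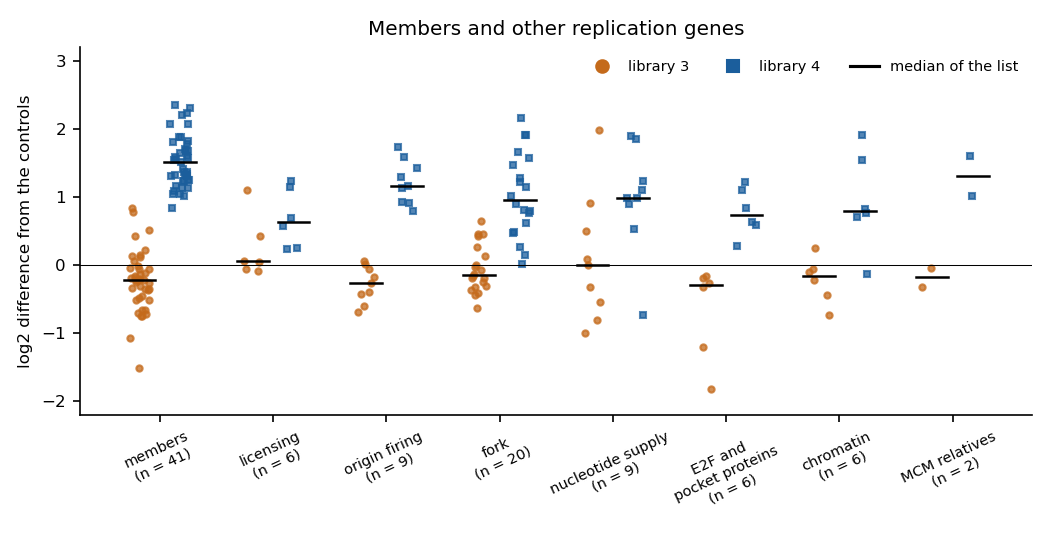
Log2 difference from the controls (vertical axis) of the 41 members and of the 7 lists of other replication genes in library 3 (circles) and library 4 (squares), 1 point per gene, with the list median as a line. The member medians are -0.22 and 1.51, and every list has a higher median in library 4 than in library 3.

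Markers of dividing cells, salivary gland and heart muscle also set libraries 3 and 4 apart, whereas the leukocyte sums were close, at 322 and 328 CPM. The 6 markers of dividing cells summed to 234 and 313 CPM in the controls, against 268 in library 3 and 1138 in library 4, with all 6 above both controls in library 4 and none at 0 in any library. Mki67, a marker of cycling cells, stood at 72.3 and 102 CPM, 87 CPM and 432 CPM. In sum, the salivary gland and heart muscle markers were high in library 3 alone, at 471600 and 19870 CPM, and fibroblast markers were highest there. Single genes differed from these sums. Col1a1 and Col1a2 were highest in library 4, at 162 and 83.38 CPM, against 106.9 and 77.32 in library 3. Mucl2 and Bpifa2 were above both controls in library 4 too, at 16.65 and 7.223 CPM. The basal tongue keratin Krt5 was at 4967 and 4784 CPM in the controls, against 3669 in library 3 and 8128 in library 4. Krt14, also a basal keratin, was below both controls in both libraries, at 25030 and 21320 CPM, 10930 CPM and 15790 CPM. The suprabasal keratin Krt13 stood at 11310 and 10290 CPM, 5227 CPM and 3909 CPM. The part of these cell types and of depth in the differences of the replication genes was not tested, and with 1 library of each kind, library and cell makeup cannot be told apart.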

How the data were processed

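RNA was sequenced from 2 control and 2 labelled Otub2 knockout libraries. The authors deposited 1 table with a raw count and an FPKM for each gene and library, per the file headers. HISAT2, DESeq and GRCh38 appear in the submitters' processing notes without a role; the IDs are mouse Ensembl IDs, 54409 of 54446 found in GENCODE M21 (GRCm38). How reads were counted, and with which strand setting and annotation, is not given in the sources used here. Features without a gene (0.914% to 2.84% of counts) were left out, and 0 columns of per-sample values stayed unused.

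Counts were tested with edgeR 4.0.16 (R 4.3.3; TMM, filterByExpr, quasi-likelihood F-test, Benjamini-Hochberg over 21916 genes, threshold 0.05), as 2 against 2 and with library 3 and library 4 as levels of their own. The code was tested on simulated data drawn from the control means. In its simulated test of 2 against 2, both labelled knockout libraries carried the same changes, unlike libraries 3 and 4. It therefore checks the code and not how well the fits suit these libraries. DESeq2, other scalings, other filters and leaving out each library were alternatives. FPKM served only to compare levels of different genes. The members, lists and rules were chosen with earlier results of these data known. Standard errors and p-values were to be given, in each role group, for the member with the smallest p and the one with the largest gap between libraries 3 and 4; among the 58 other genes up to 3 per list with the smallest p were to be named, and any outside these rules are said to be chosen later. Promoters are from RefSeq (GRCm38.p6).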

Additional observations from a re-analysis of the deposited data

How the results depend on the processing

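In library 4 the member median was above 0 in every setting, with 35 to 41 members called higher, and 33 to 41 were called higher in library 4 than in library 3. In library 3 the calls and medians moved with the scaling. With library size only, the test of 2 against 2 called 1943 genes, library 3 had 14628 genes called against 8799, 0 members higher, 36 lower and a member median of -1.12, and library 4 against library 3 had 10137 genes called and a member median of 2.54. Upper-quartile scaling gave 0 members higher, 21 lower and a median of -0.70 in library 3, and a median of 1.06 in library 4. Without a filter 9 genes were called in the test of 2 against 2 and the median in library 4 was 1.67. With a mean of at least 5 CPM, 4441, 3282 and 3721 genes were called in library 3, in library 4 and between them, 0 members were higher and 11 lower in library 3, and the medians were -0.50 and 1.11. With features that name no gene kept, 2 members were higher in library 3, where the median turned to 0.017, and library 4 had 18175 genes called and a median of 1.79. DESeq2 called 1038 genes in the test of 2 against 2, and 3650, 3164 and 2890 in library 3, in library 4 and between them, with 0 members higher in library 3. Scaling to counts outside the gland and heart markers, chosen after seeing the data, gave 0 members higher, 12 lower and a median of -0.58 in library 3, and 1.997 between the libraries. With that scaling the median of all tested genes in library 3 was itself -0.38, against -0.04 with TMM. With features that name no gene kept, the median of all that was tested in library 3 was -0.23. Whether members were called more often than genes at large in either setting was not tested. The cause of the shifts between settings was not tested either.

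Leaving out 1 library at a time, the test of 2 against 2 called 0 to 9454 genes, 0 to 41 members higher and 0 to 3 lower, with member medians of -0.22 to 1.53; without library 3 it called 9454 genes and 41 members, and without library 4 8204 genes. Of the 13 members given with tests, 8 turned below 0 without library 4: Mcm3 (-0.52), Cdc6 (-0.75), Cdc45 (-0.67), Pole (-0.13), Lig1 (-0.069), Rrm2 (-0.76), E2f1 (-0.32) and Chaf1b (-0.67); their highest values were 2.23, 2.26, 1.69, 2.09, 1.83, 1.90, 1.80 and 2.38. No paired analysis was possible because the groups share no replicate numbers. The fit with libraries 3 and 4 apart was not run without a control, since no spread between replicates is then left. Low counts limit Fen1, with 10 and 15 counts in the controls.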

Other observations

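Ratios of counts within a library do not depend on scaling between libraries. They do depend on gene length, so a ratio above or below 1 does not order the levels of its genes. The 5 pairs below were chosen after their values were seen, their 95% exact intervals cover counting error only, and none of the ratios was tested between groups. Rrm2b, the reductase subunit that p53 induces, had 0.194 and 0.266 counts per count of Rrm2 in the controls, 1.57 in library 3 (1.32 to 1.88) and 0.127 in library 4 (0.111 to 0.146). Library 3 was thus the 1 library with more counts of Rrm2b than of Rrm2, which is the subunit of S phase. Chaf1b had 0.307 and 0.304 counts per count of Chaf1a in the controls, 0.22 in library 3 (0.165 to 0.29) and 0.665 in library 4 (0.605 to 0.73). Of the exonic bases of Chaf1a 52.5% are shared with Ubxn6 on the other strand, so this ratio is uncertain.

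The ratio of E2f2 to E2f1 was the one pair in which libraries 3 and 4 were alike and apart from the controls. It was 2.42 (1.96 to 3.01) and 2.3 (1.84 to 2.89) in the controls, 0.827 (0.608 to 1.12) in library 3 and 0.84 (0.745 to 0.947) in library 4. Uhrf1 to Dnmt1 was 1.01 and 0.908 in the controls, 0.28 in library 3 (0.242 to 0.324) and 0.604 in library 4 (0.574 to 0.636), so both libraries lay below both controls. Samhd1, which breaks down deoxynucleotides, to Rrm1, which takes part in making them, was 1.78 and 1.05 in the controls, 0.998 in library 3 and 0.278 in library 4 (0.261 to 0.297).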
